A study of Arabidopsis thaliana with 8 samples.

Results

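Transcript levels were compared between heat-stressed and mock-treated Arabidopsis thaliana seedlings after 2 days of recovery, on 2 arrays of each. These 4 arrays were chosen by their labels, out of 8 in the series. Seedlings were grown in vitro under long days at 22 °C for 3 weeks. The heat plants spent 30 h at 37 °C and then 2 days back at 22 °C, whereas the mock plants stayed at 22 °C throughout. The other 4 arrays hold heat and mock plants sampled directly after the stress, 2 of each, and are used here only to set the recovered plants against the stressed ones. Whole seedlings were measured, so fewer cells of a type and less RNA per cell cannot be told apart. The labels call the 2 arrays of a group biological replicates and name no accession, mutant allele or transgene for any group.

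High temperature unfolds proteins, and plants answer with heat stress transcription factors that switch on small heat shock proteins and other chaperones. Small heat shock proteins hold unfolded proteins in a soluble state, and chaperones of the HSP70 and HSP90 classes with their co-chaperones refold them. When the temperature drops again most of these transcripts decline, and the question addressed here is which transcripts still differed 2 days later. Growth, carbon reserves and water status are also altered by prolonged heat, so transcripts of starch breakdown, sugar starvation, dehydration and cell wall growth are described beside the chaperones.

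Values are on the log2 scale on which the array signals were summarised, so a difference of 1 is a 2-fold difference in signal. Of 22746 probe sets, 13849 had a log2 value of at least 4 on at least 2 of the 8 arrays and were kept. One gene was given for 7459 of these, several for 301 and none for 6089. Replicate arrays correlated at 0.987 in heat plants and 0.992 in mock plants across kept probe sets, and the means of the 2 groups correlated at 0.981, against 0.716 for the groups sampled directly after stress. The 3′ minus 5′ signal of the GAPDH control, a sign of RNA integrity, was 3.18 and 3.25 in heat plants and 3.24 and 2.73 in mock plants. Kept leaf markers (the 9 nuclear photosynthesis genes) averaged 7.06 to 14.02 in heat plants and 7.24 to 14.09 in mock plants. The root marker PYK10, a root beta-glucosidase, stood at 12.16 and 11.94 in heat plants and 12.08 and 11.69 in mock plants. Of 6 listed root markers, 3 had a probe set with 1 gene and only PYK10 was kept. None of the 7 listed flower and seed markers had a probe set with 1 gene, so they were not assessed.

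After recovery, 582 of the 13849 kept probe sets (4.20%) differed between heat and mock plants at an adjusted p below 0.05 (limma). They are called changed below. Of these, 300 (2.17%) were higher in heat plants and 282 (2.04%) lower, and 305 differed at least 2-fold, 167 (1.21%) of them higher and 138 (0.996%) lower. The median size of a called difference was 1.02, against a median size of 0.18 over all kept probe sets. One gene was given for 276 of the called probe sets, which stand for 274 genes, 153 higher and 121 lower. In all 582 the heat and mock arrays did not overlap, which also held, in one direction or the other, for 25.0% (heat above) and 25.4% (heat below) of all kept probe sets.

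The number of calls depended strongly on the fit, since each group has 2 arrays and the spread was estimated from all 4 groups. It was 2 with only the 4 recovery arrays, 1 without variance moderation and 54 without the filter on low values. With 1 array left out it was 436 (heat replicate 1), 186 (heat replicate 2), 37 (mock replicate 1) and 80 (mock replicate 2), and 79 and 322 without either heat or either mock array taken directly after stress. Only 24 probe sets, 17 higher and 7 lower, were called with each of the 8 arrays left out in turn, and 2719 kept probe sets had an unadjusted p below 0.05. The genes AT1G48720, HSP17.6C-CI, HSP17.6B-CI and EXLB1, described below, were among these 24. AT3G15720 and AT1G21320 were too, but each was kept only through the group where it was high. The fits with an array left out used the same kept probe sets, so they are no separate support for these genes. Of the 300 higher probe sets, 9 passed the filter on low values only through the recovered heat arrays, and of the 282 lower ones, 12 only through the recovered mock arrays, so these had to differ. For the 4 such genes named below (AT3G15720, AT4G35720, AT5G33370 and AT1G21320) the adjusted p is that of the fit without the filter. Every other called gene named below lost its call without at least 1 array.

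The 15 largest rises, among called probe sets with 1 gene given, included HSP17.6C-CI and HSP17.6B-CI, which are small heat shock proteins of the cytosol, the alpha-amylase AMY1, the cold-regulated COR27, COR28 and COR15A, the defensin PDF1.4 and AT2G07741 in a nuclear copy of mitochondrial DNA. AT1G48720 stood at 7.65 and 7.35 in heat plants, while both mock arrays were at 2.18, the floor of the signal. Its difference was therefore at least 5.20 (adjusted p = 8.95e-05), and directly after stress it had reached 9.06 and 9.78 in heat plants, against 2.51 and 2.33 in mock plants. The probe sets of AT1G48720 and AT2G07741 are marked by the manufacturer's suffix as shared by more than one transcript, so their signal cannot be given to those genes alone. AT3G15720 stood at 7.17 and 7.47 in heat plants, against 3.52 and 3.65 in mock plants, a difference of 3.74 ± 0.16 (SE, n = 2 each, adjusted p = 0.0173 without the filter, limma). Directly after stress AT3G15720 was low on all arrays, at 2.85 and 3.14 in heat plants and 2.90 and 3.10 in mock plants, so its high level appeared only on the recovered heat arrays.

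AMY1, an alpha-amylase that cleaves starch, stood at 6.48 and 8.06 in heat plants, against 2.81 and 2.46 in mock plants. Its difference was 4.63 ± 0.75 (adjusted p = 0.0215), the widest standard error among the 15. With values below 4 set to 4 the difference was 3.27 (adjusted p = 0.0272, limma), and without the filter it did not pass the test (adjusted p = 0.176). PDF1.4, a plant defensin, reached 7.99 and 8.96 in heat plants, against 4.80 and 5.19 in mock plants (3.48 ± 0.50, adjusted p = 0.0154). Directly after stress PDF1.4 had been lower in heat plants, with a difference of -2.31, with an interaction of 5.79 between the 2 time points (adjusted p = 2.99e-04). AT1G72060 likewise stood at 8.11 and 8.39 in heat plants, against 6.17 and 6.10 in mock plants, after lying at the floor (2.23 and 2.19) in heat plants directly after stress, when mock plants had 6.22 and 7.58. AT1G07050, a protein with the CCT domain found in many flowering and clock regulators, was at 7.50 and 7.96 in heat plants and at 4.94 and 5.55 in mock plants (2.49 ± 0.24, adjusted p = 0.00523).

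Further rises were smaller or started from low signal. AT4G35720 stood at 4.94 and 4.07 in heat plants and at 2.38 and 2.28 in mock plants, a difference of 2.17 ± 0.25 that did not pass the test without the filter (adjusted p = 0.0963) and was 0.50 with values below 4 set to 4 (adjusted p = 0.321). AT5G16980, a member of the zinc-binding dehydrogenases, stood at 7.32 and 7.85 in heat plants, against 5.65 and 5.46 in mock plants (2.03 ± 0.25, adjusted p = 0.0103). EXLA1, an expansin-like protein, had an adjusted p of 0.0472 and lost its call with any 1 of the 8 arrays left out. Of these 15 rises, 14 lay above all 4 mock arrays of both time points, beside 14.2% of all kept probe sets. The rule that chose them already required both heat arrays to lie outside the 2 recovery mock arrays. Directly after stress 8 of the 15 had been called higher, 4 lower and 3 neither way, beside 35.2% higher and 35.2% lower of all kept probe sets. Their calls numbered 12 without heat replicate 1, 10 without heat replicate 2, 8 without either mock replicate of the recovery, 4 without either heat array taken directly after stress and 13 without either mock array taken then.

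**Figure D1:**
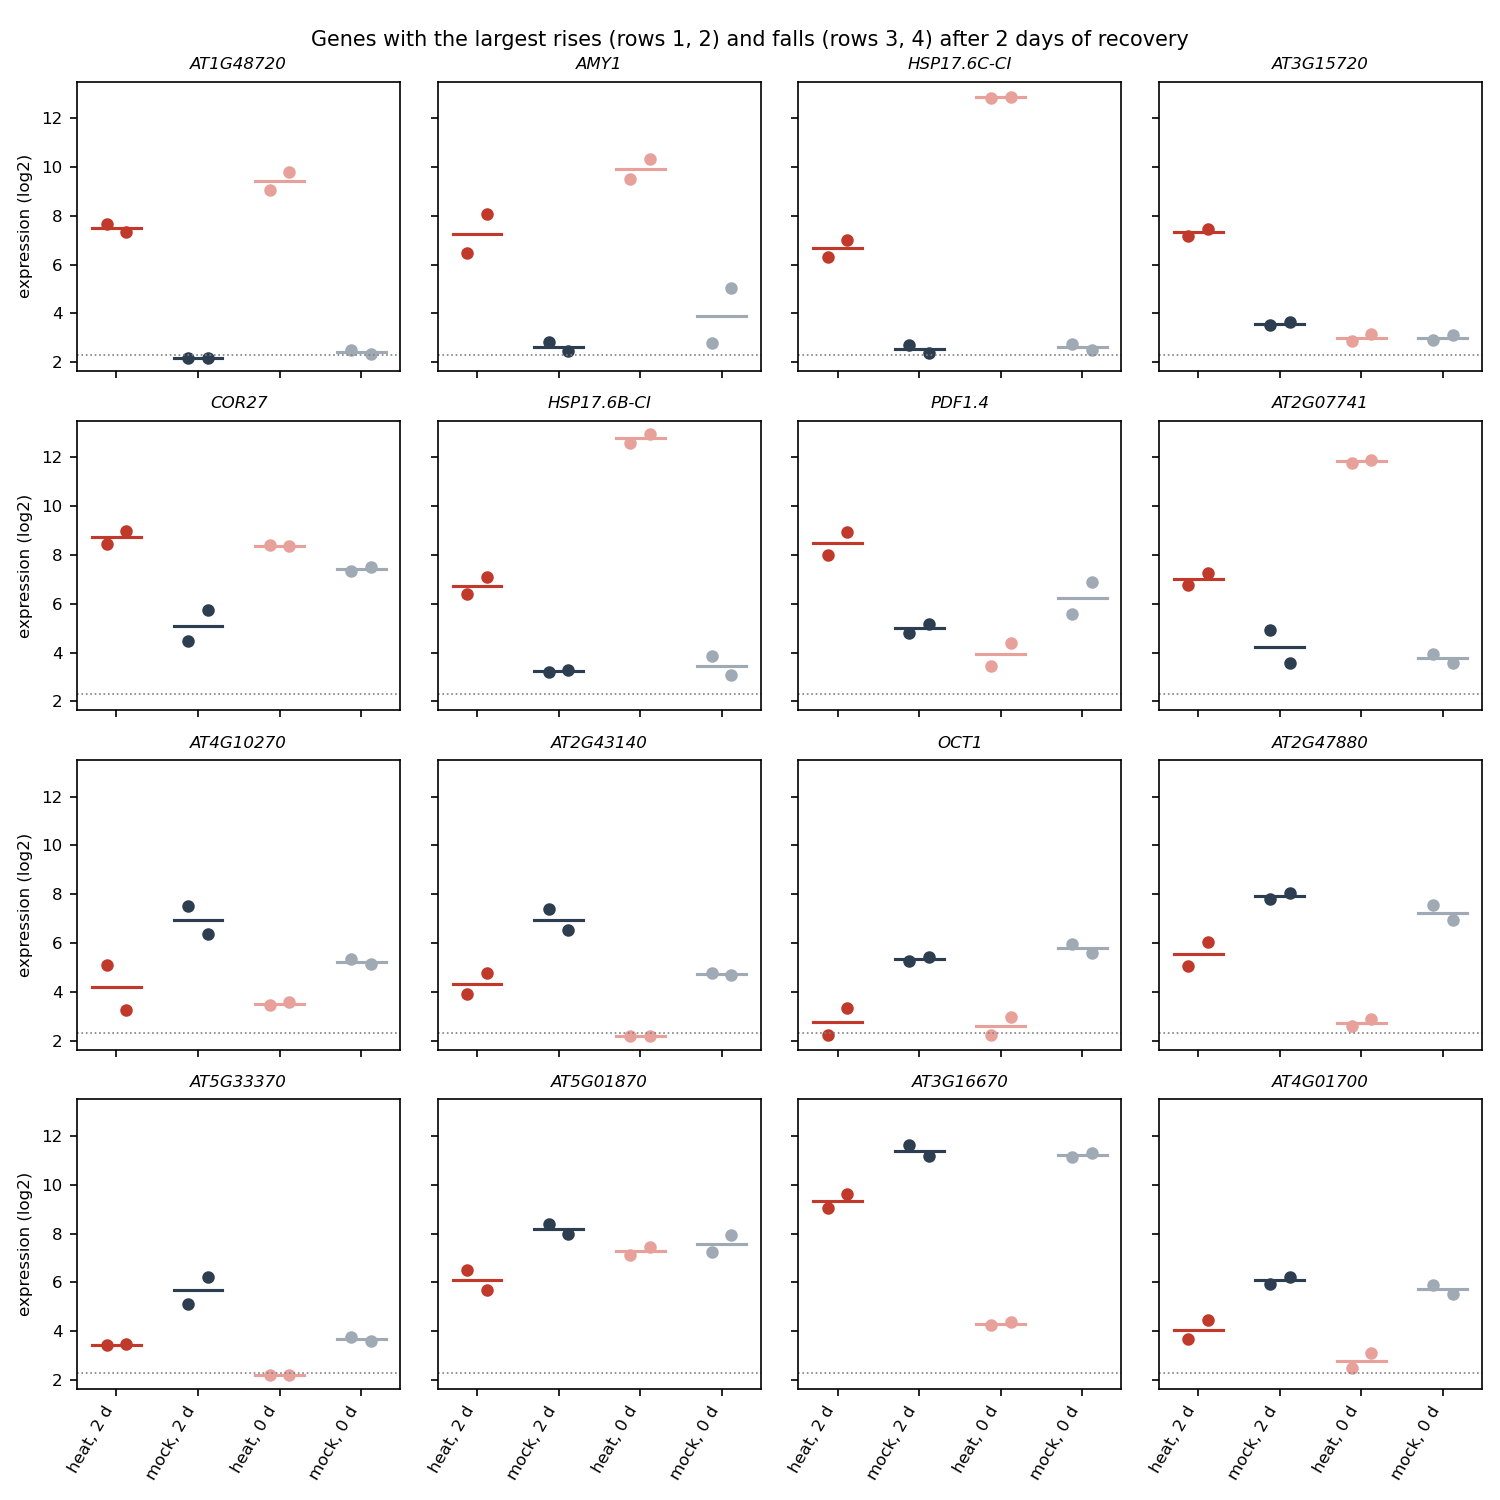
Expression (log2 signal, vertical axis) of the 8 largest rises (rows 1 and 2) and the 8 largest falls (rows 3 and 4) on all 8 arrays. Points are single arrays and bars group means of 2 arrays, from left to right heat and mock plants after 2 days (2 d) of recovery, then heat and mock plants directly after stress (0 d), and the dotted line is the floor of the signal at 2.3. AT3G15720 is high on the recovered heat arrays only, whereas HSP17.6C-CI lies between its mock level and its level directly after stress.

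The 15 largest falls were smaller, with differences of -2.76 to -1.55. AT4G10270 stood at 5.11 and 3.27 in heat plants, against 7.53 and 6.37 in mock plants, and fell by 2.76 on the log2 scale (SE 0.57, adjusted p = 0.0443). AT2G43140, a transcription factor of the bHLH family, stood at 3.90 and 4.78 in heat plants and at 7.38 and 6.53 in mock plants, a difference of -2.61 ± 0.33 (adjusted p = 0.0112). OCT1, a carnitine transporter, was at 2.24 and 3.33 in heat plants and at 5.27 and 5.44 in mock plants (-2.57 ± 0.37, adjusted p = 0.0154). It had been as low directly after stress, at 2.24 and 2.98 in heat plants, against 5.97 and 5.60 in mock plants.

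The glutaredoxin AT2G47880 stood at 5.07 and 6.03 in heat plants, against 7.79 and 8.07 in mock plants (-2.38 ± 0.33, adjusted p = 0.0145), and the glutaredoxin AT1G03020 at 4.75 and 4.31, against 6.83 and 6.06 (-1.92 ± 0.41, adjusted p = 0.0462). The GDSL-type esterase AT5G33370, of a group that polymerises cutin, stood at 3.43 and 3.46 in heat plants and at 5.12 and 6.22 in mock plants, a difference of -2.23 ± 0.30 that did not pass the test without the filter (adjusted p = 0.129). The lipid transfer protein AT5G01870 was at 6.52 and 5.70 in heat plants and at 8.40 and 7.98 in mock plants (-2.08 ± 0.33, adjusted p = 0.0202). WSD1, which makes wax esters, was at 2.32 and 2.18 in heat plants and at 3.78 and 4.38 in mock plants (-1.83 ± 0.26, adjusted p = 0.0146), but its difference was -0.19 (adjusted p = 0.715) with values below 4 set to 4. WSD1 had stood far higher in heat plants directly after stress, at 7.20 and 6.53 with both mock arrays at 2.18, a difference of at least 4.57.

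AT3G16670, a member of the pollen Ole e 1 family, stood at 9.07 and 9.62 in heat plants and at 11.61 and 11.18 in mock plants (-2.05 ± 0.21, adjusted p = 0.00689), and directly after stress its difference had been -6.91. AT4G01700, of the chitinase family, was at 3.70 and 4.44 in heat plants and at 5.94 and 6.22 in mock plants (-2.01 ± 0.29, adjusted p = 0.0159). AT1G21320 was at 2.86 and 3.00 in heat plants and 4.41 and 4.74 in mock plants (-1.64 ± 0.14, adjusted p = 0.0456 without the filter, limma). Both mock arrays of the earlier time had AT1G21320 at 2.86, so the mock level itself was 1.71 higher at the recovery time (adjusted p = 0.00810), and with values below 4 set to 4 the difference between heat and mock plants was -0.57 (adjusted p = 0.0570). The differences of AT1G24575, AT2G36690 and AT3G51750 were -1.64, -1.57 and -1.55. With values below 4 set to 4 the calls of EXLA1, AT1G03020 and AT3G51750 were also lost, and the differences of HSP17.6C-CI and OCT1 shrank to 2.66 and -1.36 with their calls kept, as did that of AT1G48720. Of the 15 falls, chosen by the same rule, 12 lay below all 4 mock arrays of both time points, beside 13.6% of all kept probe sets. Directly after stress 11 of the 15 had been called lower, 3 higher and 1 neither way, beside 35.2% lower and 35.2% higher of all kept probe sets. Their calls numbered 13 without heat replicate 1, 9 without heat replicate 2, 3 without mock replicate 1, 7 without mock replicate 2, 3 without either heat array taken directly after stress and 12 without either mock array taken then.

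**Figure D2:**
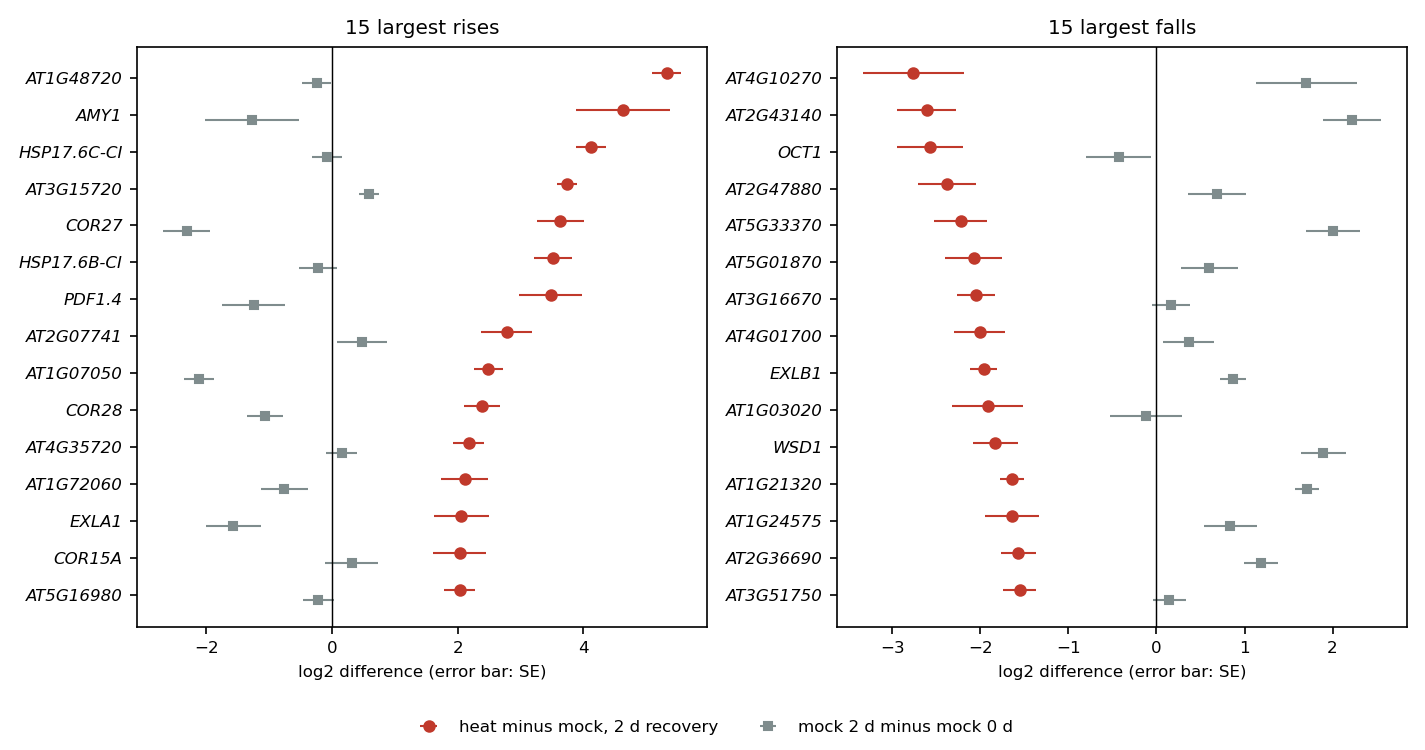
Log2 differences with standard errors (horizontal axis) for the 15 largest rises (left) and the 15 largest falls (right). Circles are heat minus mock plants after 2 days of recovery and squares are mock plants of the recovery time minus mock plants sampled 2 days earlier, which share the mock recovery arrays. COR27 differs by 3.63 between heat and mock plants while the mock groups of the 2 time points differed by -2.31.

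Of the small heat shock proteins, 3 were still higher in heat plants after recovery, and the others did not pass the test. Of 11 members kept, 3 were called higher and 0 lower, against 2.17% and 2.04% of all kept probe sets, and the list's median difference was 0.13, against 0.00 over all kept probe sets. HSP17.6C-CI stood at 6.30 and 7.03 in heat plants, against 2.71 and 2.37 in mock plants (4.12 ± 0.24, adjusted p = 6.68e-04), and HSP17.6B-CI at 6.41 and 7.09, against 3.20 and 3.28 (3.51 ± 0.30, adjusted p = 0.00340). HSP15.7, a small heat shock protein of the peroxisome, was at 6.47 and 6.17 in heat plants and at 5.12 and 5.09 in mock plants (1.22 ± 0.14, adjusted p = 0.00905). Directly after stress the differences of the 3 had been 10.23, 9.32 and 4.33. Without the filter the call of HSP17.6C-CI held (adjusted p = 0.0379, limma). Those of HSP17.6B-CI and HSP15.7 were lost in that fit (adjusted p = 0.0719 and 0.0646). The call of HSP15.7 was lost without either recovery mock array (adjusted p = 0.0838 and 0.0541), and both HSP17.6 calls held with any 1 array left out.

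Among the small heat shock proteins that were not called, HSP23.5-M of the mitochondrion stood at the floor on all 4 recovery arrays, after a difference of at least 7.97 directly after stress. HSP23.5-M passed the filter only through the heat arrays taken directly after stress, so it had to be higher there. HSP14.7 was at 2.89 and 2.85 in heat plants, against 3.47 and 4.45 in mock plants (-1.09 ± 0.27, adjusted p = 0.0742), and without mock replicate 1 it was called lower (adjusted p = 0.0148). HSP15.4 was at 9.45 and 9.59 in heat plants, against 10.28 and 10.04 in mock plants (-0.65 ± 0.15, adjusted p = 0.0547), and HSP21.7 differed by -0.68 ± 0.17 (adjusted p = 0.0709). HSP18.5 differed by 0.56 ± 0.15 (adjusted p = 0.0906).

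Among 9 chaperones and co-chaperones kept, 1 was called higher and 2 lower, against 2.17% and 2.04% of all kept probe sets, with a median of -0.07. All 9 had been called higher directly after stress, as were 35.2% of all kept probe sets. HOP3 was 1 of 567 kept probe sets that passed the filter only through both heat arrays taken directly after stress, so it had to be higher then. ROF2, a peptidyl-prolyl isomerase that partners HSP90, stood at 6.41 and 6.52 in heat plants, against 5.02 and 4.54 in mock plants (1.69 ± 0.32, adjusted p = 0.0351), after a difference of 9.37 directly after stress. HSC70-3, a constitutive HSP70, was at 8.57 and 8.85 in heat plants and at 9.55 and 9.53 in mock plants (-0.83 ± 0.13, adjusted p = 0.0188). BOB1, a small chaperone also needed for development, was at 6.93 and 6.62 in heat plants and at 7.41 and 7.39 in mock plants (-0.63 ± 0.13, adjusted p = 0.0466). HSC70-3 and BOB1 had been higher in heat plants directly after stress, by 2.18 and 2.57, with interactions of -3.01 and -3.20. HSA32, required for the memory of heat acclimation, differed by 0.40 ± 0.14 (adjusted p = 0.158) and HOP3, a co-chaperone of HSP70 and HSP90, by 0.55 ± 0.15 (adjusted p = 0.0935). The 3 chaperone calls numbered 0 without either recovery mock array or either heat array taken directly after stress, and 1 without heat replicate 2.

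All 6 kept genes of the endoplasmic reticulum stress list had a negative difference (median -0.33). Of these 6, 1 was called lower, against 2.04% of all kept probe sets. CRT1B, a calreticulin that folds glycoproteins, was at 8.95 and 8.68 in heat plants and at 9.45 and 9.59 in mock plants (-0.70 ± 0.14, adjusted p = 0.0373), after a rise of 0.69 directly after stress. ERDJ3B of the same list differed by -0.56 ± 0.13 (adjusted p = 0.0539), and the transcription factor BZIP60 by -0.37 ± 0.16 (adjusted p = 0.240). The call of CRT1B was lost without any array but heat replicate 1. No heat stress transcription factor had a kept probe set with 1 gene, so this class is not analysed here.

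Genes induced by abscisic acid, drought or cold had the highest median of the lists with at least 3 kept genes, 1.24 over 8 kept members. Of these 8, 5 were called higher and 0 lower, against 2.17% and 2.04% of all kept probe sets. In this list mock replicate 2 stood above mock replicate 1 by a median of 0.44, against 0.00 over all kept probe sets, and the part of that gap in the result was not tested. COR27 and COR28 are cold-regulated repressors that act in the circadian clock. COR27 stood at 8.46 and 9.00 in heat plants, against 4.46 and 5.74 in mock plants (3.63 ± 0.38, adjusted p = 0.00687), and COR28 at 9.52 and 9.92, against 6.84 and 7.82 (2.38 ± 0.29, adjusted p = 0.0111). Directly after stress COR28 had been lower in heat plants, at 6.85 and 6.78, against 8.38 and 8.42 in mock plants. At the earlier time point the mock level of COR27 had been 7.33 and 7.50, although the difference between the mock groups was not called (adjusted p = 0.0862). GI, the only kept gene of the core clock list, was at 9.19 and 9.51 in heat plants and at 8.98 and 9.01 in mock plants (0.35 ± 0.15, adjusted p = 0.250). The labels start the heat treatment in the light phase but give no hour of sampling for either group.

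COR15A and COR15B protect chloroplast membranes in cold and drought. COR15A was at 8.60 and 7.46 in heat plants and at 5.50 and 6.49 in mock plants (2.03 ± 0.42, adjusted p = 0.0445). COR15B, named after its values were seen, differed by 1.58 ± 0.32 (adjusted p = 0.0398). AT3G02480, a late embryogenesis abundant protein, stood at 3.04 and 3.00 in heat plants with both mock arrays at the floor, a difference of at least 0.72 (adjusted p = 0.0339), after one of 10.97 directly after stress. This call was lost without the filter (adjusted p = 0.144), and no difference remained with values below 4 set to 4. AT3G02480 passed the filter only through the heat arrays taken directly after stress, so it had to be higher there. The dehydrin COR47 was at 11.20 and 11.46 in heat plants and at 10.35 and 10.52 in mock plants (0.89 ± 0.20, adjusted p = 0.0532), and the dehydrin LTI30 differed by 0.29 ± 0.58. The 5 calls of the list numbered 2 without heat replicate 1, 4 without heat replicate 2, 2 without either recovery mock array, 1 without either heat array taken directly after stress and 2 without either mock array taken then.

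Both starch calls were rises and the sugar transport call was a fall. Of 5 kept starch genes, AMY1 and PWD were called higher and 0 lower, against 2.17% and 2.04% of all kept probe sets. PWD, which phosphorylates starch for its breakdown, was at 10.38 and 10.47 in heat plants and at 9.78 and 9.88 in mock plants (0.59 ± 0.13, adjusted p = 0.0468). DPE1, which processes maltotriose, differed by 0.39 ± 0.17 (adjusted p = 0.269), and APL3, a subunit of the first enzyme of starch synthesis, by -0.12 ± 0.27 (adjusted p = 0.871). The sugar exporter SWEET1 was at 7.54 and 7.59 in heat plants and at 8.10 and 8.05 in mock plants (-0.51 ± 0.11, adjusted p = 0.0492), the only call among 8 kept sugar transport genes. SWEET11, which exports sucrose from leaf phloem parenchyma, differed by -0.47 ± 0.15 (adjusted p = 0.140). Both starch calls were lost without heat replicate 2, either recovery mock array or either heat array taken directly after stress, and the SWEET1 call was lost with any 1 array left out.

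All 6 kept genes of the sugar starvation and darkness list had a positive difference, with a median of 0.75. Of these 6, 3 were called higher, against 2.17% of all kept probe sets. The 3 take part in the breakdown of branched-chain amino acids, namely the 2 subunits of methylcrotonyl-CoA carboxylase and isovaleryl-CoA dehydrogenase. MCCA was at 10.55 and 10.78 in heat plants and at 9.76 and 9.45 in mock plants (1.06 ± 0.22, adjusted p = 0.0452). IVD was at 8.71 and 9.09 in heat plants, against 7.97 and 7.80 in mock plants (1.02 ± 0.21, adjusted p = 0.0445), and MCCB at 9.27 and 9.38, against 8.70 and 8.42 (0.76 ± 0.15, adjusted p = 0.0405). All 3 had been lower in heat plants directly after stress, with differences of -3.03, -0.70 and -0.86, and interactions of 4.09, 1.72 and 1.62.

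The other 3 members were not called. AT3G15630 differed by 0.66 ± 0.21 (adjusted p = 0.127) after a difference of -7.34 directly after stress, PPDK by 0.74 ± 0.24 (adjusted p = 0.138) and AT3G15450 by 0.31 ± 0.17 (adjusted p = 0.371) after one of -8.60. The 3 calls of the list numbered 0 without either recovery heat array, either recovery mock array or either heat array taken directly after stress, and 2 without either mock array taken then. Among 11 kept autophagy genes all differences were positive, with a median of 0.29, but 0 were called by limma. Of these 11, 3 had an unadjusted p below 0.05 (limma), as had 2719 of all 13849 kept probe sets. The 9 nuclear photosynthesis genes had a median of -0.03 and 0 calls, with 0 at an unadjusted p below 0.05 (limma). Directly after stress 8 of them had been called lower, as were 35.2% of all kept probe sets.

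Cell wall loosening genes moved in both directions, with 1 of 7 called higher and 2 lower, against 2.17% and 2.04% of all kept probe sets. EXLA1 stood at 7.46 and 8.16 in heat plants, against 5.21 and 6.30 in mock plants (2.06 ± 0.44, adjusted p = 0.0472). The related EXLB1 was at 3.62 and 3.51 in heat plants and at 5.71 and 5.33 in mock plants (-1.96 ± 0.15, adjusted p = 0.00259), and it had been higher in heat plants directly after stress, at 8.91 and 8.77, against 4.71 and 4.60 in mock plants. The expansin EXPA15 was at 4.64 and 4.84 in heat plants and at 5.78 and 5.69 in mock plants (-0.99 ± 0.14, adjusted p = 0.0146). EXPA8 differed by 0.86 ± 0.33 (adjusted p = 0.204) and the wall-modifying enzyme XTH19 by 1.12 ± 0.60 (adjusted p = 0.360). The 3 calls of the list numbered 1 without either recovery mock array and 2 with any other array left out.

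Defensins, thionins and lipid transfer proteins also split, with PDF1.4 higher and the thionin AT1G66100 lower among 8 kept. Of all kept probe sets, 2.17% were called higher and 2.04% lower. AT1G66100 was at 7.51 and 7.82 in heat plants and at 8.66 and 8.29 in mock plants (-0.81 ± 0.16, adjusted p = 0.0402), after lying at the floor in heat plants directly after stress, with a difference from mock plants of -7.87 or lower. PDF1.2a, a jasmonate-responsive defensin, was at 4.73 and 6.69 in heat plants and at 8.73 and 6.00 in mock plants, so the groups overlapped (-1.65 ± 0.89, adjusted p = 0.358). AT4G10270 was the only call among 6 low oxygen genes, and AT4G27450 of the same list differed by 0.84 ± 0.22 (adjusted p = 0.0787). Without heat replicate 2, either recovery mock array or either heat array taken directly after stress, the defensin and low oxygen lists had 0 calls, and the low oxygen list also had 0 without either mock array taken then.

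The mitochondrial genome encodes subunits of the respiratory chain and parts of cytochrome assembly, and 5 of its transcripts were higher in heat plants. All 15 kept genes had a positive difference, with a median of 0.62, and these 5 were called, against 2.17% of all kept probe sets. Directly after stress 14 of the 15 had been called higher, as were 35.2% of all kept probe sets, and the list's median difference was 6.81. The lowest means among the 15 after recovery were 2.25 in heat plants and 2.18 in mock plants. A gene that low could pass the filter only through arrays taken directly after stress, so a difference at that time was partly set by the filter. The cytochrome oxidase gene cox2 was at 6.08 and 7.02 in heat plants and at 4.78 and 4.46 in mock plants (1.93 ± 0.29, adjusted p = 0.0173). The NADH dehydrogenase gene nad5 was at 5.32 and 6.01 in heat plants, against 3.55 and 4.04 in mock plants (1.87 ± 0.24, adjusted p = 0.0116), and nad9 at 5.16 and 5.59, against 3.83 and 3.28 (1.82 ± 0.21, adjusted p = 0.00905). For nad5, 2 probe sets were kept, and only the one with the higher mean is given here.

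The other called genes, cox1 and the cytochrome assembly gene ccb452, differed by 1.65 ± 0.27 (adjusted p = 0.0231) and 1.35 ± 0.27 (adjusted p = 0.0414), and are named after their values were seen, as is nad6. The probe sets of nad5, ccb452 and nad6 carry the suffix for shared transcripts, so their signal cannot be given to those genes alone. The heat arrays differed from each other for nad6, at 3.38 and 5.02, against 2.36 and 2.31 in mock plants (1.86 ± 0.44, adjusted p = 0.0593). Heat replicate 2 was above heat replicate 1 in 14 of the 15 genes, by a median of 0.43, against a median of 0.02 over all kept probe sets. Without heat replicate 2 the list had 4 calls and without heat replicate 1 it had 6, but it had 1 without mock replicate 1, 2 without mock replicate 2, 0 without either heat array taken directly after stress and 4 without either mock array taken then. The 25S ribosomal RNA control stood at 11.99 and 11.79 in heat plants and at 11.51 and 11.96 in mock plants, so the groups overlapped. The part of the gap between the heat arrays in the mitochondrial result was not tested.

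A copy of mitochondrial DNA on chromosome 2 carries near-identical genes, and its probes may report either source. Of 22 kept loci there, 3 were called higher and 0 lower, against 2.17% and 2.04% of all kept probe sets. All 22 had been called higher directly after stress, as were 35.2% of all kept probe sets. In both recovery groups 10 of the loci lay at the floor. These 10 could pass the filter only through arrays taken directly after stress, so a difference at that time was partly set by the filter. AT2G07741, an ATP synthase subunit 6 gene, was at 6.77 and 7.28 in heat plants and at 4.92 and 3.57 in mock plants (2.78 ± 0.40, adjusted p = 0.0154). AT2G07751 differed by 1.26 ± 0.19 (adjusted p = 0.0178) and AT2G07718 by 0.58 ± 0.13 (adjusted p = 0.0492). The probe sets of both, like that of AT2G07741, carry the suffix for shared transcripts. These 3 calls numbered 0 without heat replicate 2 or either heat array taken directly after stress, 1 without either recovery mock array and 2 with any other array left out. Of 63 kept plastid genes 1 was called lower and 0 higher, against 2.04% and 2.17% of all kept probe sets, with a median of -0.08. Heat replicate 2 was above heat replicate 1 in 6 of the 63, with a median gap of -0.23, against 0.02 over all kept probe sets. The called one was psbF, a cytochrome b559 subunit of photosystem II, at 12.64 and 12.42 in heat plants and at 13.09 and 13.22 in mock plants (-0.63 ± 0.13, adjusted p = 0.0415), a call lost without any array but heat replicate 1.

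Several lists had no call. Their counts at an unadjusted p below 0.05 stand beside 2719 of all 13849 kept probe sets at that level (limma). The 5 core histone genes had a median of -0.38, and 3 of them had an unadjusted p below 0.05 (limma). HTB2 differed by -0.61 ± 0.17 (adjusted p = 0.0900) and HTB1 by -0.46 ± 0.14 (adjusted p = 0.109). The tau-class glutathione transferases had 0 calls among 5 kept genes and 3 at an unadjusted p below 0.05. Glucosinolate genes had 0 among 4 with 1 at that level, and chromatin silencing genes 0 among 3 with 0 at that level. For reactive oxygen, auxin and elongation, and cell cycle genes, 0 of 3 kept genes each were called, with 1 each at an unadjusted p below 0.05.

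**Figure D3:**
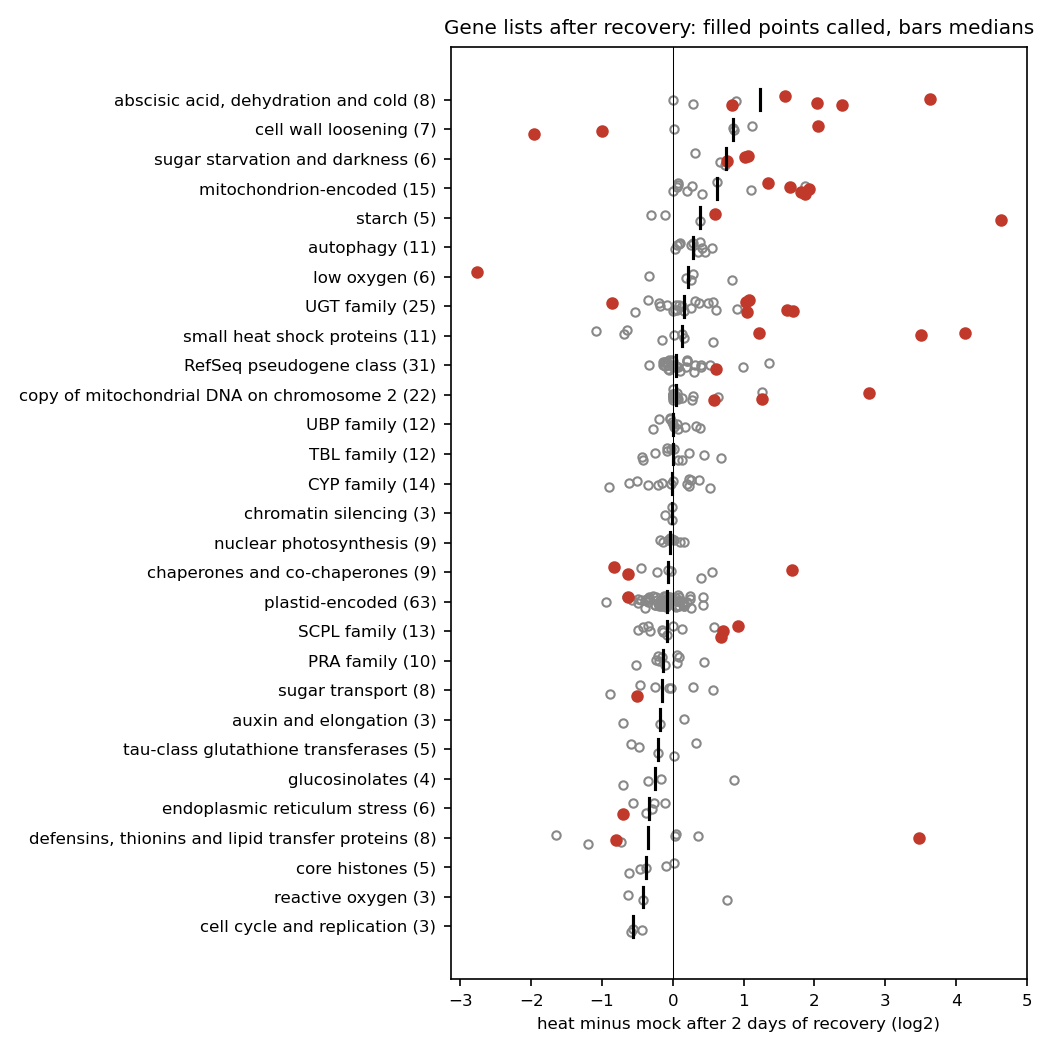
Heat minus mock difference after 2 days of recovery (log2, horizontal axis) for every kept gene of each list with at least 3 kept genes, the number of which is in brackets. Filled points passed the test, open points did not, and black bars are list medians, highest at the top; vertical scatter within a list carries no value. The abscisic acid, dehydration and cold list has the highest median, 1.24, and all 15 mitochondrion-encoded genes lie above 0.

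The recovered plants were then set against the plants sampled directly after stress, with which they share no array. Directly after stress 9749 kept probe sets (70.4%) were called, and the heat effect differed between the time points for 8256 (59.6%, interaction test), toward higher values in 29.5% and toward lower values in 30.2%. The median size of the difference was 0.79 directly after stress. Across kept probe sets the 2 differences correlated at 0.12, and across the called 582 at 0.35, as a description.

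Of the 300 probe sets higher after recovery, 123 (41.0%) had been called higher directly after stress, 130 (43.3%) lower and 47 neither way. Of all probe sets called higher or lower directly after stress, 35.2% each of the kept ones, these are 2.53% and 2.67%. Of the 282 lower after recovery, 138 (48.9%) had been called lower, 88 (31.2%) higher and 56 neither way. Those 123 that stayed higher had a median difference of 1.22 after recovery and of 2.41 directly after stress, and the 138 that stayed lower had medians of -1.06 and -1.95. HSP17.6C-CI and AMY1 are among the genes that stayed higher, AT3G16670 and OCT1 among those that stayed lower, PDF1.4 and COR28 among the rises that had been lower, and EXLB1 and WSD1 among the falls that had been higher.

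**Figure D4:**
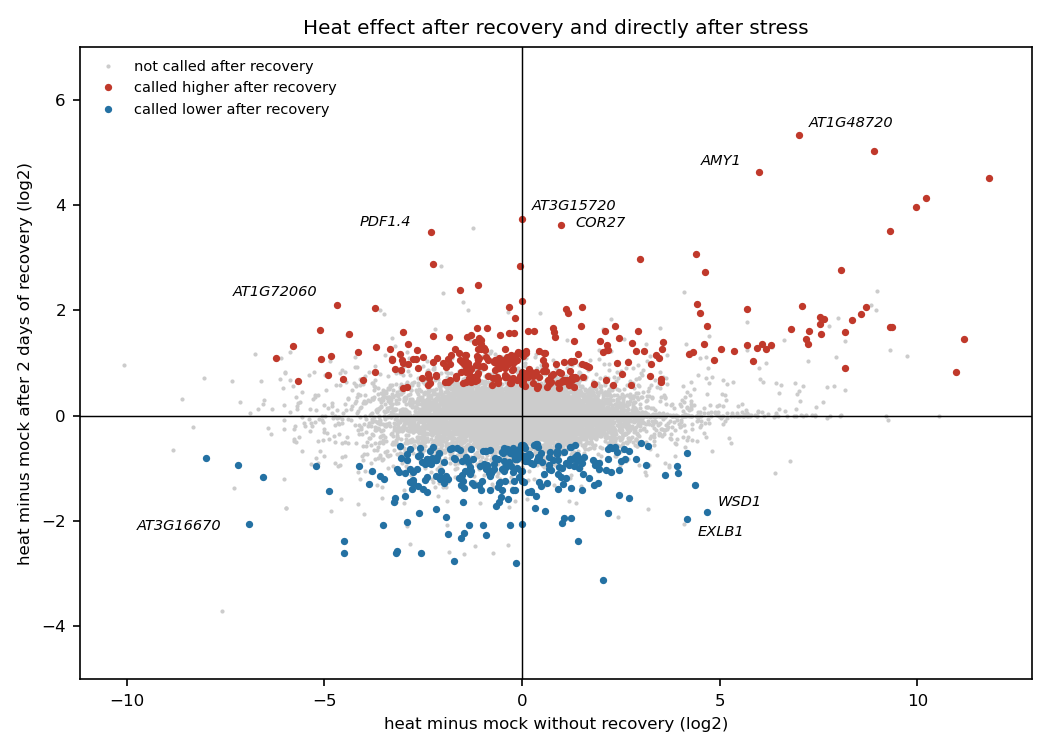
Heat minus mock difference after 2 days of recovery (vertical axis, log2) against the same difference directly after stress (horizontal axis, log2) for the 13849 kept probe sets. Red points are the 300 called higher and blue points the 282 called lower after recovery, grey points are the rest, and 9 named genes are marked; called points lie in all 4 quadrants.

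The mock plants of the recovery time were 2 days older than those sampled directly after stress, and 21 kept probe sets (0.152%) differed between these mock groups, 0.0866% higher and 0.0650% lower at the later time. Because this comparison shares the mock recovery arrays with the main one, its values are given side by side only. The mock change was negative in 233 of the 300 probe sets higher in heat plants, with a median of -0.28, and positive in 218 of the 282 lower ones, with a median of 0.26. Against all 4 mock arrays of both time points, the heat arrays lay above in 276 of the 300 (92.0%) and below in 246 of the 282 (87.2%), beside 14.2% and 13.6% of all kept probe sets. These shares are a description, since in all 582 the heat arrays already lay outside both mock recovery arrays. The largest mock changes among the 30 genes of the largest rises and falls were -2.31 for COR27, 2.22 for AT2G43140, -2.12 for AT1G07050 and 2.00 for AT5G33370.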

How the data were processed

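RNA of Arabidopsis seedlings was measured on Affymetrix arrays, 2 per group in 4 groups, after labelling with biotin per the labels' protocols. The authors deposited 1 score per probe set and array. GCRMA, named in the submitters' processing notes, corrects background, normalizes by quantiles and summarises probes as log2 values, with no version stated there. Deposited values lacked a decimal point (0 of 182480 held one), which was restored after 2 digits for values starting with 1 and after 1 digit otherwise, so the log2 scale (2.18 to 15.23) is a reading of the numbers. Quantile normalization hides any shift common to all transcripts.

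Probe sets other than the 64 controls with a log2 value of at least 4 on at least 2 arrays were kept. limma 3.58.1 in R 4.3.3 fitted 1 mean per group to all 8 arrays (4 residual degrees of freedom), with moderated variances, two-sided tests and Benjamini-Hochberg adjustment over all kept probe sets (threshold 0.05). Differences are given ± SE of that fit. The fit was also run on simulated data, the outcome of which is not reported here. A group with both arrays below 2.3 was read as at the floor, and a difference against it is given against 2.3 (medians and figures use the fitted values). With 2 arrays per group an exact permutation test of 1 value cannot reach the threshold, and the number of arrays limits the precision. The labels do not say whether replicates came from separate sowings, so p-values measure the spread between these arrays.

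Genes came from the platform annotation, and 7421 kept probe sets with 1 gene matched RefSeq locus tags (TAIR10.1, used for names only). Where a gene had more than 1 probe set, the one with the highest mean stands for it. Named were the 15 largest rises and 15 largest falls among called genes whose heat arrays lay outside the mock range, and up to 3 called members with the smallest p of each list, with any called member of smallest p against the majority. The rule allowed uncalled members of lists with 10 or fewer kept genes, and those named here, like the uncalled HSP genes, were picked with their values known. The members and lists were chosen with earlier results of these data known. Of 41 lists 29 had at least 3 kept genes and 6 had none. Mitochondrial genes were taken by symbol and plastid genes by RefSeq chromosome instead of by locus prefix, and 8 lists (families of at least 10 symbols, the chromosome 2 copy and pseudogenes) were added after gene names were seen. A planned ribosomal protein list was not used here, and 1 family is not reported here. Alternatives covered the filter, floor, scaling, variance model, replicate block and each array left out. Python 3.11.15 with pandas 2.3.3 and matplotlib read and plotted the tables.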

Additional observations from a re-analysis of the deposited data

Results flagged for a closer look

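The heat effect differed between the 2 time points (interaction, adjusted p below 0.05, limma) for most called genes named above. It did so for 59.6% of all kept probe sets, and these genes were chosen for the recovery difference, which is a part of the interaction. The values below are the difference after recovery minus the difference directly after stress, on the log2 scale, given without explanation.

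Among the rises after recovery that were smaller than directly after stress, the value was -6.10 for HSP17.6C-CI, -5.81 for HSP17.6B-CI, -3.12 for HSP15.7, -7.68 for ROF2 and -3.65 for COR15A. It was -5.30 for AT2G07741, -3.78 for AT2G07751 and -2.17 for AT2G07718 of the chromosome 2 copy, and -6.52 for nad9, -5.66 for nad5, -6.65 for cox2, -5.16 for cox1 and -4.94 for ccb452 of the mitochondrial genome. UGT85A5 had -0.65 and SCPL49 had -0.76.

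Rises that were larger after recovery, or that had been falls, gave positive values. These were 3.75 for AT3G15720, 2.66 for COR27, 5.79 for PDF1.4, 3.60 for AT1G07050, 3.97 for COR28 and 2.38 for EXLA1. They were 1.34 for PWD, 1.62 for MCCB, 1.72 for IVD, 4.09 for MCCA, 1.46 for UGT73B1 and 1.33 for scpl35.

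Falls after recovery that had been smaller falls, rises or no call directly after stress gave negative values. These were -1.77 for AT5G01870, -6.14 for EXLB1, -4.26 for AT3G51750, -3.01 for HSC70-3, -3.20 for BOB1, -1.39 for CRT1B, -3.53 for SWEET1, -2.25 for UGT78D1 and -1.99 for EXPA15. Falls that had been larger directly after stress gave 2.13 for AT2G47880, 4.87 for AT3G16670 and 1.64 for AT2G36690.

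Where a group lay at the floor of the signal, the value was taken against 2.3 and is a bound. It was 6.71 or higher for AT1G72060, 7.06 or higher for AT1G66100 and -6.39 or lower for WSD1. For AT1G48720, AT3G02480 and AT1G21320 the bound limits the size from above, at -1.79, -10.25 and -1.08 or higher. AT4G35720 has no bound, since both groups sampled directly after stress were at the floor.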

How the results depend on the processing

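The 582 calls after recovery became 54 without the filter on low values, 2 with only the 4 recovery arrays and 1 without variance moderation. They ranged from 37 to 436 with 1 array left out. They numbered 559 to 655 under the other filters and the raised floor, 571 and 585 under the other scalings and 806 with a trended, robust variance prior. With 1 array left out, calls ranged from 8578 to 9842 directly after stress, from 7182 to 7791 for the interaction and from 0 to 34 for the mock groups 2 days apart (limma, 1037 to 1812 at an unadjusted p below 0.05).

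No called gene named above changed direction under an alternative. Of the 59 called, 6 kept the call without the filter, 1 with only the 4 recovery arrays, 0 without moderation and 12 to 40 with 1 array left out. The uncalled PYK10 ranged from -0.0356 (without mock replicate 2 of the recovery) to 0.355. Same-numbered arrays deviated from their group means with correlations of -0.149 (the recovery groups) to 0.186 (the 2 heat groups) over the 6 pairs of groups, so the numbers were not read as pairs. With the replicate block 475 probe sets were called after recovery, 9678 directly after stress, 8153 for the interaction and 19 between the mock groups, and 45 of the 59 named genes kept their call. A crossed pairing, added after the data were seen, gave 614 calls after recovery. A lone array was assumed to vary like the other groups. Signals near the floor limit the low genes.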

Other observations

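Several families not described above held called genes. The 25 kept UGT genes encode glycosyltransferases acting on hormones, flavonoids and foreign compounds, and had a median of 0.16. Of these 25, 5 were called higher and 1 lower, against 2.17% and 2.04% of all kept probe sets. UGT85A5 was at 6.86 and 6.95 in heat plants and at 5.16 and 5.26 in mock plants (1.70 ± 0.17, adjusted p = 0.00562), and UGT73B1 at 8.08 and 8.51, against 6.76 and 6.61 (1.61 ± 0.19, adjusted p = 0.00969). The flavonol glycosyltransferase UGT78D1 was at 6.86 and 6.92 in heat plants and at 7.74 in both mock arrays (-0.85 ± 0.11, adjusted p = 0.0121). The 6 calls numbered 0 without mock replicate 1 of the recovery, 1 without mock replicate 2, 2 without either heat array taken directly after stress, 3 without heat replicate 2, 4 without either mock array taken directly after stress and 7 without heat replicate 1.

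Of 13 kept serine carboxypeptidase-like genes 3 were called higher and 0 lower, against 2.17% and 2.04% of all kept probe sets, although the family median was -0.08. SCPL49 was at 9.48 and 9.76 in heat plants and at 8.54 and 8.86 in mock plants (0.92 ± 0.16, adjusted p = 0.0251), scpl48 differed by 0.68 ± 0.12 and scpl35 by 0.71 ± 0.15. These calls numbered 2 without heat replicate 1 and 0 with any other array left out. No gene was called (limma) among 14 cytochrome P450 (CYP), 12 TBL, 12 UBP and 10 PRA genes, with 3, 2, 0 and 2 of them at an unadjusted p below 0.05. Of all 13849 kept probe sets, 2719 were at that level. Of 31 kept genes of RefSeq's pseudogene class 1 was called higher, against 2.17% of all kept probe sets. It was AT3G07280, at 6.27 and 6.34 in heat plants and 5.76 and 5.62 in mock plants (0.61 ± 0.12, adjusted p = 0.0423), and its call was lost with any 1 array left out.

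BHLH101, an iron-deficiency transcription factor, was at 7.38 on heat replicate 1 and 3.08 on heat replicate 2, against 2.51 and 2.26 in mock plants (2.84 ± 1.14, adjusted p = 0.221). No gene was listed for 292 of the 582 called probe sets, and these are counted but not named.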
